A study of Mus musculus with 24 samples.

Results

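The extracellular matrix genes described here encode collagens, laminin chains, tenascins, hyaluronan-binding proteoglycans of the lectican family, link proteins and 4 further matrix proteins (fibronectin, perlecan, reelin and decorin). They were chosen as protein-coding genes whose mouse symbol names a collagen chain, a laminin chain, Tnc, Tnr, a Hapln gene, Acan, Bcan, Ncan, Vcan, Fn1, Hspg2, Reln or Dcn, with a mean of at least 10 sense-strand counts over 24 libraries. Of 69 genes with such a symbol, 68 met the minimum, out of 15007 protein-coding genes that did and 52636 genes in the files. Col9a1 was just inside the minimum with a mean of 15.7 counts, and Col10a1 was just outside it with 9.21.

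Collagens and laminins are secreted as trimers of chains encoded by separate genes, and laminins, collagen IV and perlecan together form the basement membrane around brain capillaries and under the meninges. The matrix between brain cells is made instead of hyaluronan, lecticans, link proteins that clamp lecticans to hyaluronan, and tenascins that cross-link them. In its densest form this matrix is the perineuronal net, which surrounds mainly parvalbumin interneurons and is known for restricting plasticity.

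RNA was sequenced from the nucleus accumbens (NAc), a ventral striatal region for reward that consists mostly of medium spiny neurons, of 24 C57BL/6 mice (C57BL/6J in the study's methods) at postnatal day 50. The groups were 6 control (Con) females, 6 females raised under MSUS (maternal separation with unpredictable stress of the mother), 6 MSUS males and 6 Con males, and each animal gave 1 library. MSUS pups were taken from the dam for 2 h per day from day 1 to day 14 by the sample labels (the study's methods state a longer time), with the dam stressed unpredictably during separation, and Con litters were left undisturbed. Tissue was taken before the study's behavioral tests. The labels do not tie animals to litters, so that p values measure the spread between animals and littermates cannot be told from unrelated mice.

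Sense-strand gene counts per library were between 39923666 and 70575745 (median 53316153.5), all 24 libraries matched their labelled sex by Xist and 4 Y-linked genes, and each of 60 within-group pairs of libraries differed beyond counting noise (lowest chi-square per gene 6.11). In all 24 libraries, none of the 10 medium spiny neuron markers was at 0. Con female 3, MSUS male 6 and Con male 5 had the lowest medium spiny neuron score (mean log2 CPM of the 10 markers, CPM being counts scaled to the size of the library) at 7.42, 7.68 and 8.09, against 8.30 to 8.88 in the other animals. These 3 animals had cortical excitatory neuron scores of 5.68, 5.84 and 5.45. The share of uniquely mapped read pairs assigned to no gene was 31.0% to 34.8% (median 32.7%) in Con females and 36.3% to 43.9% (median 39.6%) in MSUS females, which did not overlap. It was 34.7% to 40.6% (median 38.4%) in Con males and 32.2% to 44.7% (median 36.4%) in MSUS males.

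The 4 promoter windows below were chosen after the data were seen. Col4a1 and Col4a2 are transcribed in opposite directions from overlapping starts and varied together between animals, Col4a4 is from another collagen IV pair with adjacent starts, and Ncan was the member whose female groups did not overlap. Each window runs 5′ to 3′ on the gene's own strand from 250 bases before the RefSeq start to 50 after it, in GRCm38.p6. Col4a1 lies at chr8:11312777-11313076 on the minus strand, Col4a2 at chr8:11312555-11312854 on the plus strand, Col4a4 at chr1:82586800-82587099 on the minus strand and Ncan at chr8:70120795-70121094 on the minus strand. Capitals mark the letters TATAAA (as in a TATA box), CCAAT (as in a CAAT box) and GGGCGG (as in a GC box) on either strand, and a match on the opposite strand appears as its reverse complement.
Col4a1: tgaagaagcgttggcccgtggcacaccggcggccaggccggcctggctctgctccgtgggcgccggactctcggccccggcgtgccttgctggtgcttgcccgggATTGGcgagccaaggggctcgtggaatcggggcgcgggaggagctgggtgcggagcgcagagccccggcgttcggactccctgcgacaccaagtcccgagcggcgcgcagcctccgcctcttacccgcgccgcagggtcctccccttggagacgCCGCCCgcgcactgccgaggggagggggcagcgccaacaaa
Col4a2: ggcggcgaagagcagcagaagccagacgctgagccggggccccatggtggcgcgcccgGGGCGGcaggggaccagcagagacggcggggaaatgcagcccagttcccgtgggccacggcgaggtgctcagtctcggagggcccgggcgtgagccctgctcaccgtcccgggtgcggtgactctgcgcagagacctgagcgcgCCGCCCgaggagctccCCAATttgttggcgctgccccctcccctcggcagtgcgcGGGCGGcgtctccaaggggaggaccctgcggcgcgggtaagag
Col4a4: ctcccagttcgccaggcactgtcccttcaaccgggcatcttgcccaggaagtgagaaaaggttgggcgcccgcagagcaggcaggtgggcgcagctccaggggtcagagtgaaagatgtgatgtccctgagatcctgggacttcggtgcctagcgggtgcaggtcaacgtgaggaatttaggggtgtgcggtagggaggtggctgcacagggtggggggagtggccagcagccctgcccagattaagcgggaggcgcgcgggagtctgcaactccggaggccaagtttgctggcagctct
Ncan: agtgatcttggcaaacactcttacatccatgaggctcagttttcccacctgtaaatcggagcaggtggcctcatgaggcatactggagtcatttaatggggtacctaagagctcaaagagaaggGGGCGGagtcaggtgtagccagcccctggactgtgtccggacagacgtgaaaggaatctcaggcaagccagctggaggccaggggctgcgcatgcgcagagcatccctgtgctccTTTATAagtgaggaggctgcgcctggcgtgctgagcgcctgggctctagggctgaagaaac

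The Col4a1 and Col4a2 windows shared 78 bases of the same genomic stretch, read from opposite strands. Their GC contents were 74.0% and 73.7%, and 1 GGGCGG match lay in the shared bases. Col4a1 had 1 CCAAT match and 1 GGGCGG match, and Col4a2 had 1 CCAAT match and 3 GGGCGG matches. The Col4a4 window held none of the motifs and contained the start of Col4a3 at position 82586921 of chromosome 1. Ncan had 1 TATAAA match and 1 GGGCGG match. RefSeq promoter windows were found for 50 of the 68 genes, with 55 entries. GGGCGG was present in 34 of the 55 (61.8%) and in 35.7% of all 32851 windows of this length, CCAAT in 18 (32.7%) and in 37.4% of all, and TATAAA in 8 (14.5%) and in 13.6% of all. The median GC content was 59.3% for the 55 windows and 52.7% for all. These matches describe letters only, and binding at them was not measured.

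In the 12 Con animals, RNA of Ncan, Bcan and Tnr, genes of the matrix between cells, was more abundant per length of exons than that of most collagens. The scale was CPM per kilobase of all annotated exons of a gene. It compares different genes only roughly, since a transcript need not hold every annotated exon. The lecticans Ncan (neurocan) and Bcan (brevican) were highest at 56.3 ± 3.72 and 53.9 ± 3.59 (mean ± SD, n = 12), an order that did not exceed their spread. Col6a1, a chain of beaded-filament collagen VI, followed at 48.4 ± 8.41. Tnr (tenascin R), which binds the lecticans and is made by oligodendrocyte lineage cells and some neurons, was at 27.4 ± 3.07. The next was Col4a2 at 10.4 ± 0.832, and no other member was above 10.

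A median of 0.927 CPM per kb over the 68 genes, with 13 above 5 and 36 below 1, places most collagens far below these. The highest mean was 939 times the lowest, with Col4a4 at 0.0613 ± 0.0130, Col6a6 at 0.0604 ± 0.0203 and Col9a1 at 0.0600 ± 0.0188 at the bottom, whose ranges overlapped. The lecticans were uneven: Vcan (versican) was at 3.73 ± 0.589, while Acan (aggrecan), the lectican best known from perineuronal nets, was at 0.655 ± 0.134, so that Ncan exceeded it 86.0-fold. Of the link proteins, Hapln4, which partners brevican at neurons, was at 7.85 ± 3.54, Hapln2, a link protein of nodes of Ranvier made by oligodendrocytes, at 5.48 ± 1.11, Hapln1, the link protein of perineuronal nets, at 3.10 ± 0.349 and Hapln3 at 0.415 ± 0.0451. Hapln4 had the widest spread of these, from 3.25 to 15.5 between Con animals, and its order relative to Hapln2 did not exceed that spread. Tnc (tenascin C), typical of developing and injured brain, was at 0.646 ± 0.146.

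Basement membrane chains spread widely, with the 6 collagen IV chains between 0.0613 (Col4a4) and 10.4 (Col4a2) CPM per kb. The main vascular collagen IV chain pair was at 7.70 ± 0.687 for Col4a1 and at a level 1.35 times as high for Col4a2, although the usual trimer holds more chains of the former than of the latter. The laminin chains that make up the common brain trimers were at 7.61 ± 0.229 for Lamc1, 6.14 ± 1.08 for Lamb1, 4.60 ± 0.267 for Lamb2, 1.49 ± 0.187 for Lama2, 1.66 ± 0.102 for Lama5 and 0.872 ± 0.0798 for Lama4, the endothelial alpha chain. Hspg2 (perlecan) was at 1.94 ± 0.121. The fibroblast genes Col1a1, Col1a2, Col3a1 and Dcn (decorin), which the brain expresses mostly in meninges and perivascular fibroblasts, were at 2.08 ± 1.48, 1.37 ± 0.392, 0.421 ± 0.0940 and 0.461 ± 0.139. Reln (reelin), a glycoprotein of interneurons that guides neuron positioning and tunes synapses, was at 8.64 ± 1.96, Fn1 (fibronectin) at 5.47 ± 0.394 and Col25a1, a neuronal transmembrane collagen, at 6.51 ± 0.452. Collagen VI chains, which assemble together, were far apart: Col6a1 exceeded Col6a2 23-fold and Col6a3 198-fold. These folds depend partly on the annotated exon lengths of 4380 bases for Col6a1, 8326 for Col6a2 and 11963 for Col6a3. Read pairs in exons of overlapping genes are not counted by the authors' tool, and 8 members contain a gene on the same strand with a mean of at least 10 counts, namely Lamc1, Tnr, Reln, Col4a1, Lama2, Lamb3, Col20a1 and Col25a1.

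**Figure D1:**
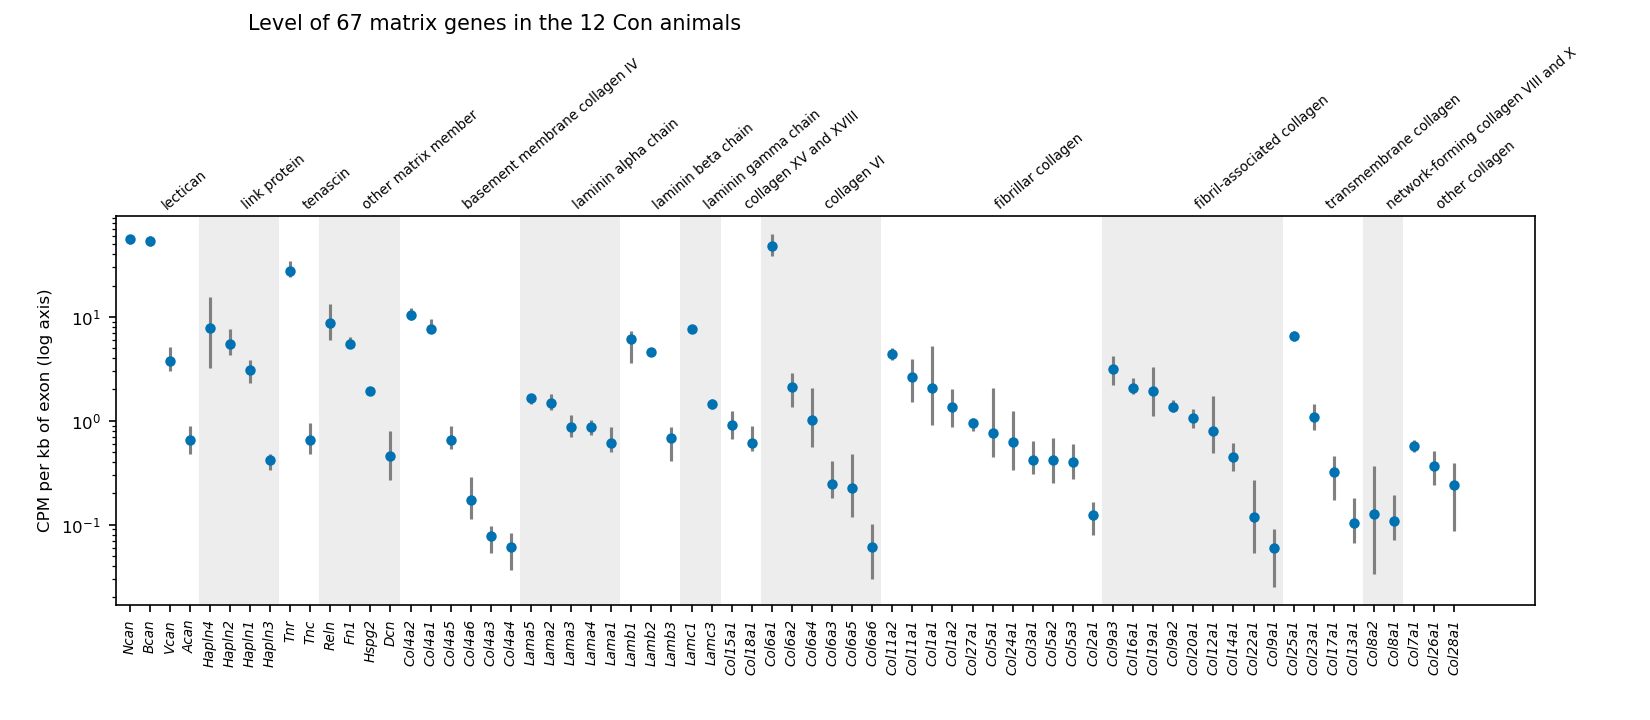
Mean level of 67 of the 68 matrix genes over the 12 Con animals in CPM per kilobase of exons, on a log axis and grouped by class, with bars from the lowest to the highest animal. Ncan, Bcan and Col6a1 stand at 56.3, 53.9 and 48.4, and 35 of the genes drawn lie below 1.

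MSUS was compared with Con in females to ask how early-life stress altered these genes in the NAc. The genes that passed moved in both directions: neurocan and the laminin chains Lama4 and Lamb2 fell, as did Hapln2 and Col22a1, while Col6a4, Col13a1 and Col6a1 rose. In edgeR's quasi-likelihood test at a Benjamini-Hochberg adjusted p under 0.10, 8 of the 68 (11.8%) were called, against 25.1% of all 20571 genes tested. Of these, 3 (4.41%) were higher in MSUS, against 13.1% of all genes, and 5 (7.35%) were lower, against 11.9% of all. Of the members, 25 (36.8%) had a log2 fold change above 0, against 49.4% of all genes. The median log2 fold change was -0.065 for the 68 and -0.0027 for all genes, and the median size was 0.168 and 0.136. Since the tissue is bulk NAc, fewer cells of a type and less RNA per cell cannot be told apart for any of these values.

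Among the lecticans, Ncan (chr8:70093085-70120873), which is made by astrocytes and neurons, was at 409 to 446 CPM (median 424) in Con and 347 to 396 CPM (median 380) in MSUS females. It was the only member whose groups did not overlap, where 3.6% of all genes were lower and 3.69% were higher without overlap, and it fell with a log2 fold change of -0.17 ± 0.038 (SE) and an adjusted p of 0.014 by edgeR. Bcan was at 195 to 246 CPM (median 224) in Con and 202 to 222 CPM (median 214) in MSUS females, with a log2 fold change of -0.044 ± 0.051 (adjusted p = 0.577 by edgeR). The MSUS range of brevican lay inside the Con range. Vcan was at 44.0 to 73.9 CPM (median 51.6) in Con and 41.9 to 55.1 CPM (median 45.4) in MSUS females, and Acan at 3.78 to 6.62 CPM (median 4.77) in Con and 3.76 to 5.91 CPM (median 4.75) in MSUS females. Neither passed, with log2 fold changes of -0.22 ± 0.13 and -0.072 ± 0.15.

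Of the 4 link proteins, Hapln2 (chr3:88021750-88027583) was at 10.2 to 18.2 CPM (median 11.9) in Con and 8.72 to 10.6 CPM (median 10.3) in MSUS females and fell with a log2 fold change of -0.37 ± 0.14 (SE) and an adjusted p of 0.077 by edgeR. Its groups overlapped, and the highest Con value came from Con female 3, which had the low medium spiny neuron score. The other link proteins did not pass: Hapln1 had a log2 fold change of 0.071 ± 0.086, Hapln3 of -0.053 ± 0.15 and Hapln4 of -0.64 ± 0.27. Hapln4 had the widest range of the family, at 21.4 to 60.8 CPM (median 29.4) in Con and 16.8 to 35.1 CPM (median 18.3) in MSUS females, and its adjusted p was 0.13 in edgeR and 0.0923 in DESeq2. Neither tenascin passed, with -0.12 ± 0.067 for Tnr and -0.18 ± 0.17 for Tnc.

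Of the 11 laminin chains, 2 fell and none rose, where 11.9% of all genes fell and 13.1% rose. Lama4 (chr10:38965515-39110188), the alpha chain of endothelial basement membranes, was at 9.47 to 12.2 CPM (median 10.9) in Con and 8.19 to 9.86 CPM (median 9.32) in MSUS females, with a log2 fold change of -0.24 ± 0.071 (SE) and an adjusted p of 0.038 by edgeR. Of the 6 MSUS females, 4 lay below every Con female. Lamb2 (chr9:108479736-108490530), a beta chain of vascular and synaptic basement membranes, was at 26.1 to 30.5 CPM (median 27.9) in Con and 25.1 to 26.7 CPM (median 26.2) in MSUS females, with a log2 fold change of -0.11 ± 0.043 (SE) and an adjusted p of 0.099 by edgeR. Lamc1, the gamma chain shared by most laminins, was among the steadiest genes at 60.3 to 66.7 CPM (median 62.1) in Con and 60.0 to 63.6 CPM (median 61.1) in MSUS females, and had a log2 fold change of -0.021 ± 0.032. Lamb1 was at 35.9 to 70.5 CPM (median 63.3) in Con and 52.8 to 67.4 CPM (median 65.1) in MSUS females, with 0.065 ± 0.14. No collagen IV chain passed, and 1 of the 6 lay above 0. Col4a1 and Col4a2 had log2 fold changes of -0.11 ± 0.072 and -0.092 ± 0.057. Hspg2 had -0.063 ± 0.046.

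Collagen VI had 2 of its 6 chains called, both higher (13.1% of all genes were), and all 6 had log2 fold changes above 0. Col6a4 (chr9:105989454-106096783) was at 4.72 to 9.44 CPM (median 6.89) in Con and 7.63 to 16.4 CPM (median 10.1) in MSUS females and rose with a log2 fold change of 0.74 ± 0.21 (SE) and an adjusted p of 0.035 by edgeR. Col6a1 (chr10:76708792-76726168) was at 167 to 232 CPM (median 212) in Con and 204 to 275 CPM (median 239) in MSUS females and rose with a log2 fold change of 0.24 ± 0.10 (SE) and an adjusted p of 0.097 by edgeR. Both pairs of groups overlapped, and Con female 3 had the lowest Col6a1. The direction of all 6 was also seen with DESeq2, with its size factors, with offsets for GC content and length, and with the replicate block, but 5 were above 0 with the share of pairs without a gene as a covariate and 3 with the cortical score.

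Col13a1 (chr10:61838236-61979108), a transmembrane collagen of synapses such as the neuromuscular junction, was at 0.307 to 0.443 CPM (median 0.364) in Con and 0.381 to 0.632 CPM (median 0.556) in MSUS females, with a log2 fold change of 0.56 ± 0.16 (SE) and an adjusted p of 0.034 by edgeR. A single MSUS female lay within the Con range. Col22a1 (chr15:71795795-72034227), a fibril-associated collagen of tissue junctions, was at 0.554 to 2.46 CPM (median 1.13) in Con and 0.313 to 1.01 CPM (median 0.514) in MSUS females, with a log2 fold change of -1.06 ± 0.38 (SE) and an adjusted p of 0.076 by edgeR, the largest change among the 68. The highest of its Con values was again that of Con female 3. Col22a1 belongs to 9 fibril-associated collagens, of which 2 lay above 0 and the median was -0.29. None of the 11 fibrillar collagens passed, with 4 above 0 and a median of -0.17. Col1a1 was at 6.95 to 31.8 CPM (median 9.18) in Con and 6.12 to 14.5 CPM (median 7.28) in MSUS females and Col1a2 at 10.9 to 24.9 CPM (median 15.2) in Con and 10.7 to 19.5 CPM (median 13.1) in MSUS females. Their log2 fold changes of -0.65 ± 0.39 and -0.23 ± 0.20 were smaller than 2 SEs, and Col3a1 was at 0.039 ± 0.12. Fn1 was at 61.2 to 75.3 CPM (median 64.4) in Con and 55.5 to 82.7 CPM (median 57.5) in MSUS females, with a log2 fold change of -0.082 ± 0.093. Reln was at 155 to 316 CPM (median 202) in Con and 163 to 230 CPM (median 212) in MSUS females, with -0.10 ± 0.15, and Dcn had 0.17 ± 0.15.

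**Figure D2:**
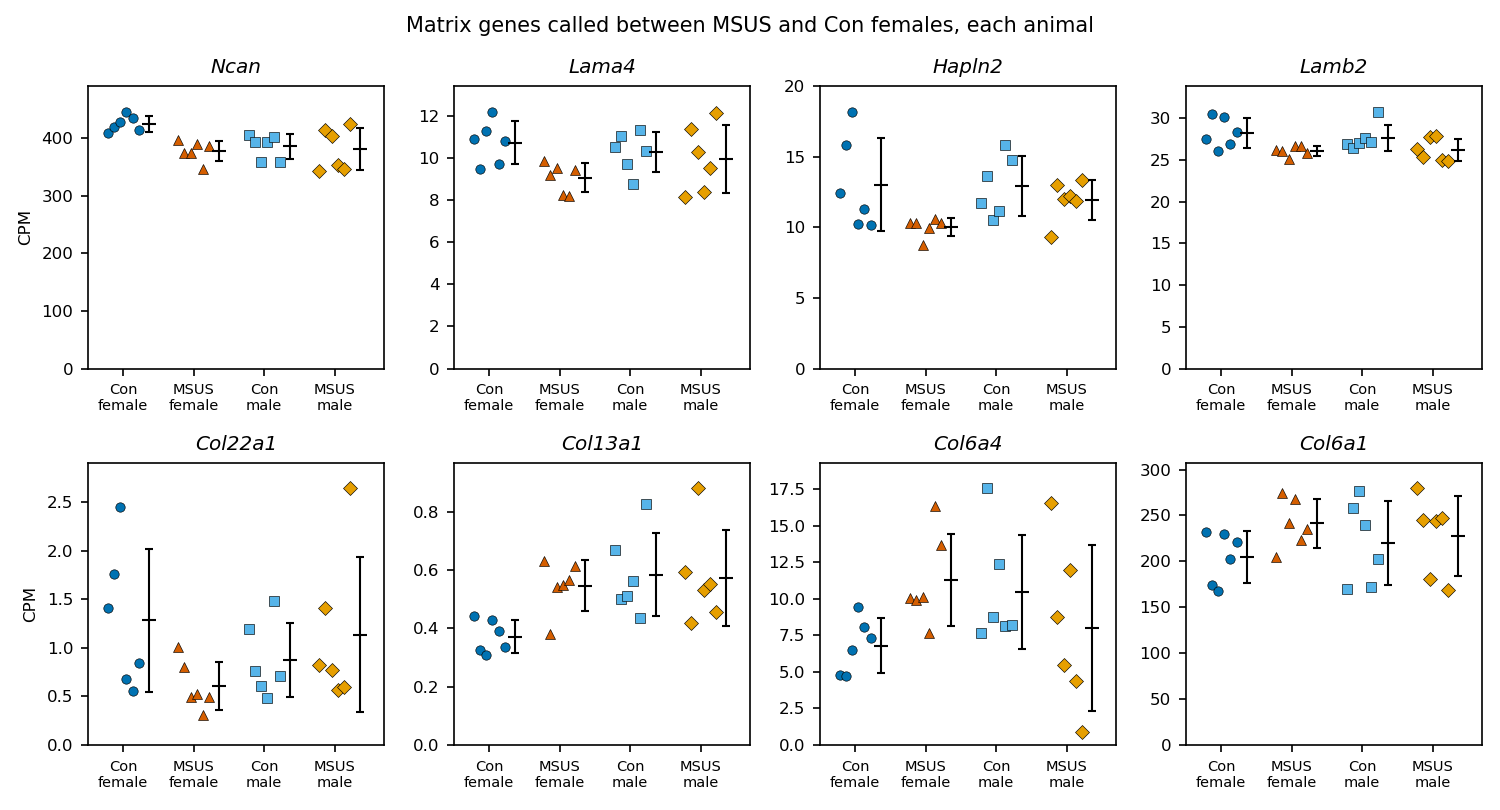
CPM of the 8 matrix genes that passed in females, per animal in each of the 4 groups (points), with the mean and SD of each group beside them; each panel has its own axis. Ncan in MSUS females (347 to 396 CPM) sits below Con females (409 to 446 CPM), and the other 7 overlap.

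The 8 calls differed in how they held. Ncan, Lama4, Col13a1 and Col6a4 were called with each of the 12 females left out in turn, whereas Col22a1, Col6a1 and Hapln2 were called in 4 and Lamb2 in 2 of these 12 fits. Col13a1 rests on few counts, with a mean of 27.5 per library. The number called was 15 (of all genes 27.7%) without MSUS female 1, 4 (of all genes 15% to 21.3%) without each of MSUS females 2 to 5, and 5 (of all genes 19.7% to 23%) without MSUS female 6, Con female 2 or Con female 3, the Con female with the low medium spiny neuron score. With the share of pairs without a gene as a covariate, which separates the female groups without overlap, 0 members and 0 of all genes were called. The log2 fold changes in that fit kept their signs for all 8, at -0.15 for Ncan, -0.38 for Lama4, -0.097 for Lamb2, -0.33 for Hapln2, -1.73 for Col22a1, 0.90 for Col6a4, 0.91 for Col13a1 and 0.31 for Col6a1. With the cortical excitatory score as a covariate, 0 members and 1631 of all genes (7.93%) were called, and Ncan had a log2 fold change of -0.15 and an adjusted p of 0.1004. Col22a1 was at -0.082 in that fit, Hapln2 at -0.14, Col6a4 at 0.44 and Col6a1 at 0.14, each more than 1.5 times smaller than without the score, while Lama4 was at -0.20, Lamb2 at -0.12 and Col13a1 at 0.50. With offsets for GC content and exon length, 16.6% of all genes were called, all 9 called members were higher and none was lower, 42 of 68 lay above 0, and the median was 0.051. Col6a4, Col13a1 and Col6a1 were among these 9 while Ncan was at -0.041, Lama4 at -0.17, Hapln2 at -0.28 and Col22a1 at -0.95 without a call, and Lamb2 was at 0.058. The median GC content of exons was 54.2% for the members and 48.8% for all genes tested. With the replicate block, 5 members and 18.5% of all genes were called, and Col6a1, Hapln2 and Lamb2 were not.

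**Figure D3:**
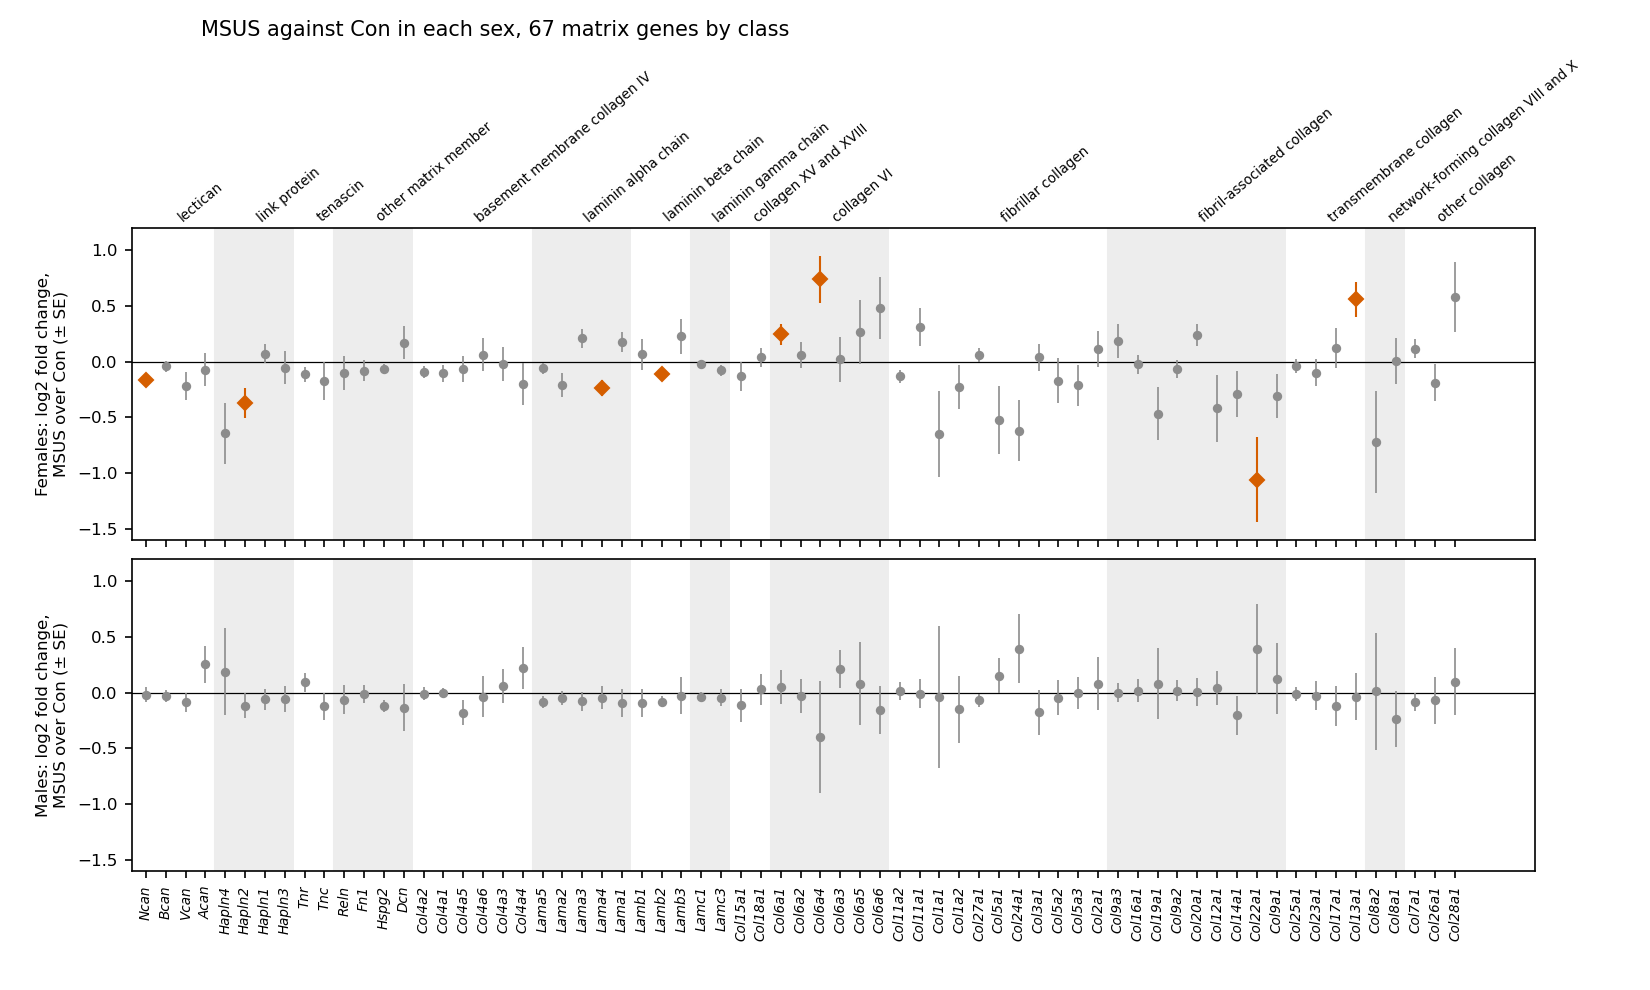
Log2 fold changes of MSUS over Con (± SE) for 67 of the 68 matrix genes in females and in males, grouped by class, with orange diamonds for those at an adjusted p under 0.10. The 8 diamonds are all in females, and Col22a1 (-1.06) and Col6a4 (0.74) are the outermost.

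Markers of some other cell types were lower in MSUS females as well. The mean log2 CPM over 10 markers was lower in MSUS than in Con females by 0.088 for endothelial cells, by 0.077 for astrocytes, by 0.22 for mature oligodendrocytes and by 1.60 for cortical excitatory neurons. In exact permutation tests over 924 splits (two-sided, adjusted over 11 lists), the first 3 had an adjusted p of 0.071 and the cortical markers had 0.089. The summed level ran from 256 to 282 CPM in Con and from 255 to 270.0 CPM in MSUS females for endothelial markers, from 6371 to 6933 and from 5985 to 6577 CPM for astrocyte markers, from 4402 to 6677 and from 4042 to 4932 CPM for oligodendrocyte markers, and from 331 to 1696 and from 201 to 789 CPM for cortical markers. No marker of these 4 lists was at 0 in any female. Single genes called lower were 7 of 10 in the oligodendrocyte list, 3 each in the astrocyte, mural and interneuron lists, 2 in the cortical list and 1 each in the endothelial and oligodendrocyte precursor lists, and no marker was called higher. Of all genes tested, 11.9% were called lower and 13.1% higher, so that the lists with 1 or 2 calls were near or little above that share. The differences for the other lists were 0.14 for medium spiny neurons, -0.39 for interneurons, -0.073 for mural cells, -0.041 for microglia, -0.039 for oligodendrocyte precursors, -0.11 for meningeal fibroblasts and -0.19 for choroid plexus and ependyma, with adjusted p from 0.124 to 0.758 in the same permutation tests. For the last 2 lists the mean was over the 9 and 7 markers that passed the count filter. Their summed levels, over all 10 listed markers, ran from 35.8 to 45.1 and from 16.9 to 42.3 CPM in Con females and from 36.7 to 52.4 and from 28.3 to 45.7 CPM in MSUS females. At most 2 markers of either list were at 0 in a female library. Their part in the change of Lama4, Ncan, Hapln2 or Col22a1 was not tested.

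In males the same comparison gave no call, for matrix genes or for any of the 20691 genes (0%), in edgeR and in DESeq2. At an unadjusted p under 0.05, 0 members passed, against 0.923% of all genes. The smallest p among members was that of Hspg2, at 25.9 to 30.2 CPM (median 27.6) in Con and 23.1 to 27.7 CPM (median 26.4) in MSUS males and a log2 fold change of -0.12 ± 0.056 (adjusted p = 1 by edgeR). Lamb2 and Col4a5 followed with -0.081 ± 0.049 and -0.18 ± 0.11. Of the genes called in females, Ncan was at 359 to 405 CPM (median 394) in Con and 343 to 424 CPM (median 379) in MSUS males and Lama4 at 8.77 to 11.4 CPM (median 10.4) in Con and 8.15 to 12.2 CPM (median 9.90) in MSUS males. Log2 fold changes ran from -0.40 (Col6a4) to 0.39 (Col24a1, with Col22a1 next), with 23 of 68 above 0 and a median of -0.029. Col6a4 was at 7.65 to 17.6 CPM (median 8.49) in Con and 0.893 to 16.5 CPM (median 7.11) in MSUS males, with the highest MSUS value in MSUS male 1 and the lowest in MSUS male 6. No marker list passed between the male groups (adjusted p = 0.913 for each of the 11 in exact permutation tests).

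Whether the effect of MSUS differed between the sexes was tested as an interaction over all 24 animals, which uses the same Con and MSUS females as above. No member and 0% of 21500 genes passed in edgeR with adjustment, and DESeq2 called 467 genes, of which 0 were members. At an unadjusted p under 0.05, 5 members (7.35%) passed, against 18.7% of all genes. Among these were Col22a1, with a female minus male log2 fold change of -1.46 ± 0.58, Col24a1 with -1.02 ± 0.43, Lama3 with 0.28 ± 0.12 and Col13a1 with 0.59 ± 0.26. Adjusted p values of the 8 genes called in females were 0.222 to 0.782, so that a difference between the sexes was not shown for any of them. Ncan had -0.15 ± 0.076. Without MSUS male 1, 3031 of 21617 genes (14.0%) were called, and of the members Col6a4 alone was, at 1.47 with an adjusted p of 0.099.

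Con females and Con males were compared to describe the sexes without stress, and the Con females are again those of the comparison above. No member was called by edgeR, against 544 of 20641 genes (2.64%), and 5 members (7.35%) had an unadjusted p under 0.05, against 17.8% of all genes. Ncan, at 409 to 446 CPM in Con females and 359 to 405 CPM in Con males, was the only member whose groups did not overlap, where 0.848% of all genes were higher in females without overlap. It had a female over male log2 fold change of 0.15 ± 0.048 and an adjusted p of 0.136 by edgeR. Col13a1 had -0.64 ± 0.18 (adjusted p = 0.107 by edgeR) and was at 0.307 to 0.443 CPM in Con females and 0.437 to 0.825 CPM in Con males. Col6a4 had -0.62 ± 0.24 (adjusted p = 0.21 by edgeR) and Lama3 -0.20 ± 0.093. DESeq2 called 3 members, namely Ncan, Col6a4 and Col13a1, against 1511 of all genes (7.32%).

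Genes that build, modify, bind or cut this matrix were examined as further lists in females. Of 23 enzymes that modify or assemble collagen, 1 rose and 2 fell, among them P3h3, a prolyl hydroxylase family member, at 0.19 ± 0.067 and Bmp1, the procollagen C-proteinase, at -0.32 ± 0.092. Of 24 matrix receptors, 1 rose and 2 fell, with the hyaluronan receptor Cd44 at 0.63 ± 0.18 and the collagen receptor kinase Ddr1, an oligodendrocyte gene in brain, at -0.27 ± 0.045. Ddr1 had 83.3 ± 5.70 CPM in Con and 68.8 ± 2.19 CPM in MSUS females (mean ± SD, n = 6). Of 17 proteases and inhibitors, 1 rose and 4 fell, with the lectican-cleaving Adamts4 at -0.31 ± 0.084 and Adamts1 at -0.35 ± 0.11. Of 23 enzymes of chondroitin sulfate and hyaluronan, 2 rose and 1 fell, with Dsel, a dermatan sulfate epimerase, at 0.34 ± 0.090 and the chondroitin polymerizing factor Chpf at -0.17 ± 0.036. Of 29 other basement membrane and proteoglycan genes, 1 rose and 5 fell, with the syndecans Sdc3 at -0.21 ± 0.042 and Sdc1 at -0.80 ± 0.20. All these values are log2 fold changes ± SE, with calls made as for the members, against 25.1% of all genes called in either direction.

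Several matrix genes varied widely between animals of the same group. The median SD of log2 CPM around the group means was 0.26 for the 68 and 0.19 for all 21500 genes tested in 24 animals. Set against genes of similar mean count, 53 of the 68 lay at or above the 50th percentile of spread and 16 above the 90th. The widest were Col1a1 (SD 0.91, highest animal 9.36 times the lowest), Col8a2 (0.90), Col6a4 (0.82, 19.7 times), Col22a1 (0.70) and Hapln4 (0.63). Lamc1 was the narrowest, with an SD of 0.057 and a highest animal 1.18 times the lowest.

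The spread of some members followed markers of neuron types, at shares close to those of all genes. In the 748 relations between 68 members and 11 marker scores, each taken as deviations from the group mean in 24 animals and chosen after the data were seen, 45 passed at an adjusted p under 0.05 in both Pearson's r and Spearman's rho (permutation tests within groups), and they involved 28 members. Interneuron markers gave 14, cortical excitatory markers 12 and medium spiny neuron markers 8. These scores were not independent. Con female 3, MSUS male 6 and Con male 5, with the lowest medium spiny neuron scores, had the highest interneuron scores (5.27, 5.32 and 5.16). Their cortical scores were high as well (5.68, 5.84 and 5.45), so that following 1 of these scores was not separated from following another. At a fixed size of at least 0.6 in both r and rho, 30 of the 68 members (44.1%) reached it with 1 or more scores, against 37.8% of 21450 genes. For the interneuron score these shares were 23.5% and 22%, for the cortical score 16.2% and 15.2%, and for the medium spiny neuron score 13.2% and 10.5%. Lamb1 followed the medium spiny neuron score with r = 0.95 and rho = 0.85 (permutation adjusted p = 0.0005 and 0.0014), r = 0.86 without the 2 animals farthest from the median score, and r = 0.94 and 0.98 within the library sets of 12. Col17a1, a transmembrane collagen of hemidesmosomes, followed it with r = 0.87 and rho = 0.88. Lamb1 was 35.9 CPM in Con female 3 and 39.8 CPM in MSUS male 6, the lowest of their groups, and these 2 animals also had the lowest scores.

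Hapln4 followed the interneuron score with r = 0.89 and rho = 0.88, with r = 0.85 without the 2 farthest animals and r = 0.95 and 0.81 within the library sets. Tnr followed it with r = 0.83, Col19a1 with 0.92, Col22a1 with 0.89 and Col24a1 with 0.86. The last 3 also followed the cortical score, with r between 0.82 (Col24a1) and 0.89 (Col22a1), and Col9a3 ran against it with r = -0.79. Col22a1 and Hapln2 were called in females, and Hapln2 followed the oligodendrocyte score with r = 0.77 and the interneuron score with r = 0.73. Lama4 followed the interneuron score (r = 0.67), Lamb2 the mural cell score (r = 0.75) and Ncan ran against the choroid plexus score (r = -0.64). Col6a5 followed the choroid plexus and ependymal score with r = 0.93 and rho = 0.92, and r = 0.92 without the 2 farthest animals. The choroid plexus and ependymal score, the one Ncan ran against, rests on 7 markers at a low level, from -0.051 to 2.1 mean log2 CPM. Up to 3 of its listed markers were at 0 in a male library. For each of these relations the permutation adjusted p was at most 0.021 for r and 0.038 for rho. Over all 45, the sign of r was the same in both library sets and without the 2 farthest animals. Of the 16 members above the 90th percentile of spread among genes of similar mean count, 9 passed with at least 1 score, against 28 of all 68. A neuron score was involved for 8 of the 9. The share passing among all genes of such spread was not counted, so that these counts are not a trait of matrix genes.

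**Figure D4:**
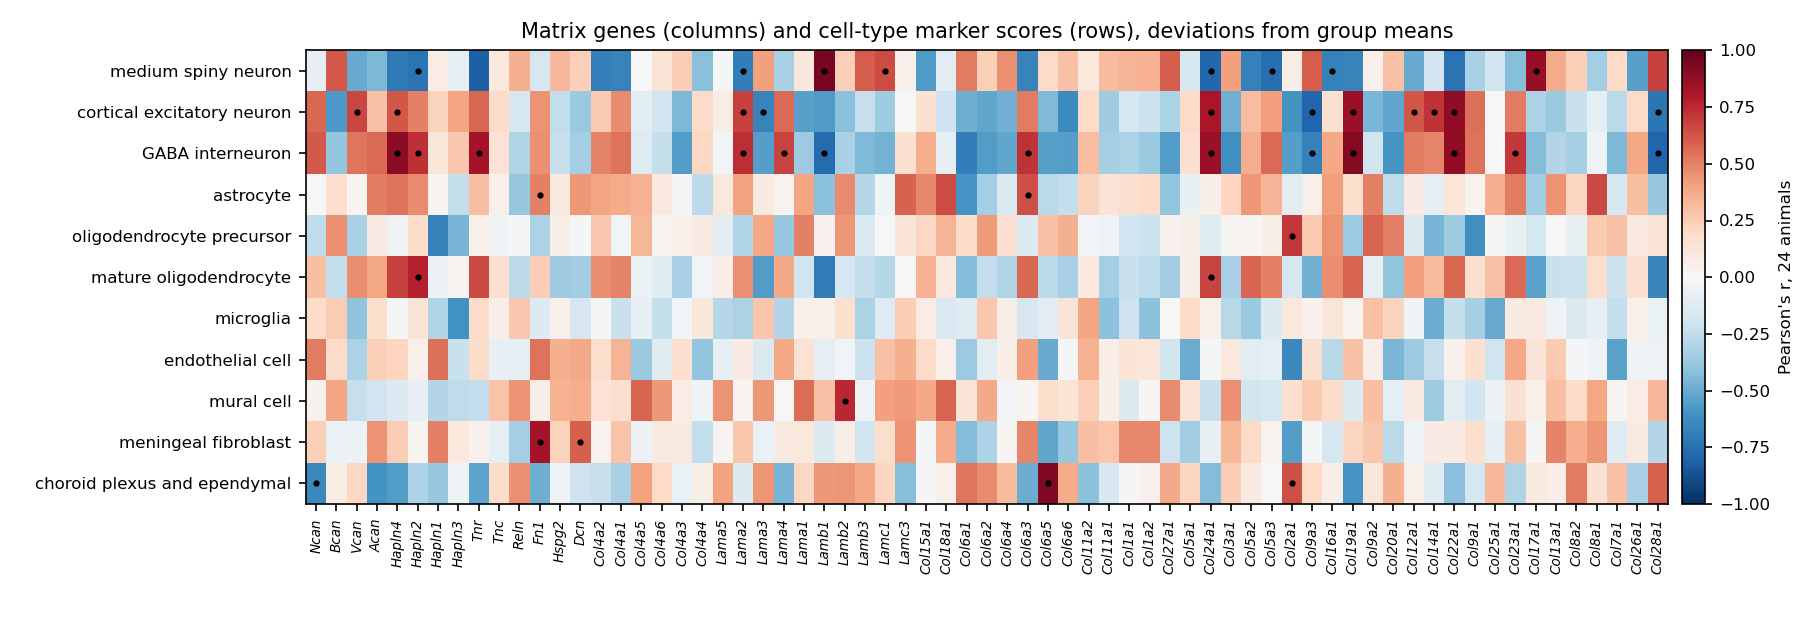
Pearson's r between 67 of the 68 matrix genes (columns) and each of 11 marker scores (rows) over 24 animals, as deviations from group means of log2 CPM, with a dot where adjusted p was under 0.05 in both r and rho. Of the 43 dots, 13 are in the interneuron row, 11 in the cortical row and 8 in the medium spiny neuron row.

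A smaller family of 25 relations set some of the genes against the meningeal fibroblast, endothelial, mural, cortical or oligodendrocyte precursor score. The cell type was not always the source named above, as for Reln with the cortical and Hapln2 with the precursor score. There, Fn1 and Dcn followed the meningeal fibroblast score (r = 0.83 and 0.59, rho = 0.67 and 0.65), and Hapln4, Ncan and Tnr followed the cortical score (r = 0.62, 0.58 and 0.57, rho = 0.62, 0.49 and 0.55), with permutation adjusted p between 0.0058 and 0.027 for r. The rho of Ncan did not pass (adjusted p = 0.073 in the permutation test), while those of Col1a1 and Col1a2 with the meningeal score did (rho = 0.58 and 0.65). Without the 2 animals farthest from the median score, 0 of the 25 passed, and within the library sets 3 and 0 did. Fn1 with the meningeal score had r = 0.61 without those animals and r = 0.92 and 0.29 within the sets. The vascular genes Col4a1, Col4a2, Lama4 and Hspg2 did not pass with the endothelial or the mural score, with r from -0.0038 to 0.39 and rho from 0.0017 to 0.37.

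Members that lie near each other, and members that are chain or matrix partners, were followed in pairs, which were chosen after the data were seen. Among 13 pairs of members that lie within 150 kb of each other, Col4a1 (chr8:11198423-11312826, minus strand) and Col4a2 (chr8:11312805-11449287, plus strand), whose starts overlap by 22 bases in the window printed above, had r = 0.86 and rho = 0.83 (permutation adjusted p = 0.00013 for both). Without the 2 farthest animals r was 0.80, and within the library sets it was 0.89 and 0.81. Col4a4 and Col4a3, also head to head and 71 bases apart, had r = -0.25 (adjusted p = 0.41 by permutation) at mean counts of 35.0 and 41.1. Col4a6 and Col4a5, head to head and 1308 bases apart, had r = 0.35 (adjusted p = 0.25 by permutation). Hapln4 and Ncan, tail to tail and 2222 bases apart, had r = 0.48 (adjusted p = 0.099), with 0.76 and 0.15 within the sets. Acan and Hapln3, 2 bases apart, had r = 0.013. Over 13142 pairs of protein-coding genes that were next to each other among those tested and within 150 kb, the median r was 0.15 and the 90th percentile 0.64. The 13 pairs of members could have other genes between them, so that the 2 sets of pairs are not fully alike. For 1e-05, the smallest p that the permutations can give, adjustment over 13 pairs gives 0.00013.

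Among 15 pairs of chain or matrix partners, Col1a1 and Col1a2, the chains of collagen I, had r = 0.94 and rho = 0.92 (adjusted p = 0.00015, from the smallest p the permutations can give), and Col1a2 and Col3a1 had r = 0.79. Acan and Hapln4 had r = 0.81 and Lamb1 and Lamc1 r = 0.70, with r of 0.84 and 0.61 without the 2 farthest animals. Col6a1 and Col6a3, chains of the same collagen VI trimer, ran in opposite directions with r = -0.63 and rho = -0.67 (permutation adjusted p = 0.0057 and 0.0037), with r = -0.70 without the 2 farthest animals and -0.74 and -0.41 within the sets. Col6a1 and Col6a2, neighbors on chromosome 10, had r = 0.56 and rho = 0.53 (permutation adjusted p = 0.061 and 0.070 over the 13 neighboring pairs). Bcan and Ncan had r = 0.039, Col11a1 and Col11a2 r = -0.025 and Col5a1 and Col5a2 r = 0.096, none of which passed.

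**Figure D5:**
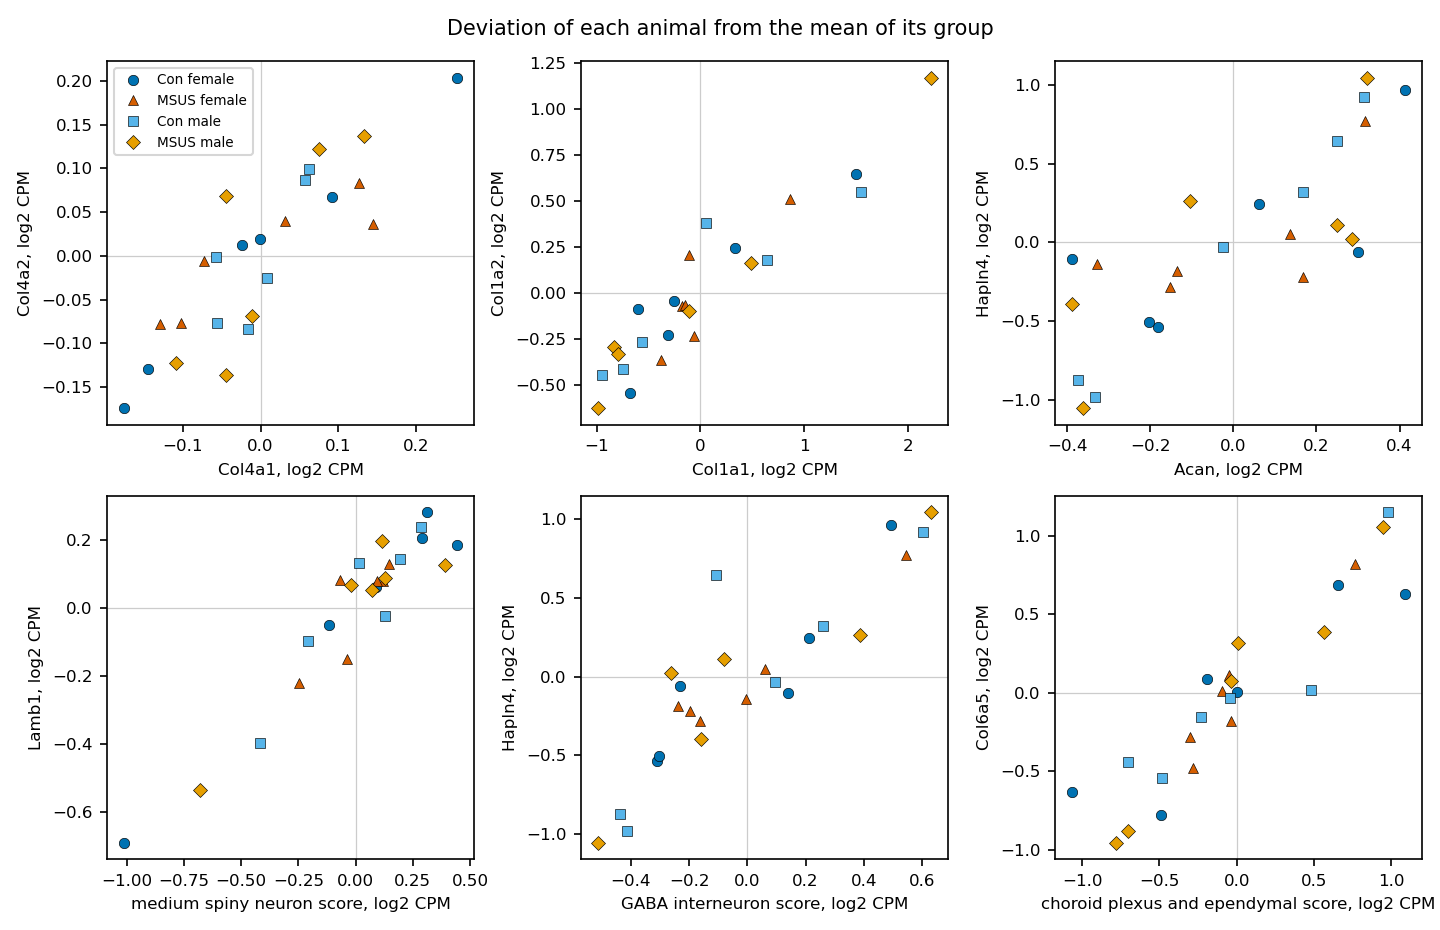
Deviations of log2 CPM from the group mean for 24 animals in 6 pairs, colored by group: Col4a1 and Col4a2 (r = 0.86), Col1a1 and Col1a2 (0.94), Acan and Hapln4 (0.81), Lamb1 with the medium spiny neuron score (0.95), Hapln4 with the interneuron score (0.89) and Col6a5 with the choroid plexus score (0.93). All 6 trends are positive.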

How the data were processed

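RNA was taken from NAc punches of 24 mice, depleted of ribosomal RNA and sequenced as read pairs. Per the study's methods, the authors trimmed adapters and aligned to mm10 with the GENCODE M15 annotation. The submitters' processing notes name STAR 2.6.1b. The authors deposited raw, unnormalized gene counts of uniquely mapped pairs, with 3 columns in each file (both strands together and each strand). The column for the sense strand was used here, since the opposite strand held 4.91% to 5.24% of the counts on both strands. Total counts per library were 39923666 to 70575745, so that members under 1 CPM rest on few counts. Pairs assigned to no gene stayed out of library sizes, and 0 columns of other samples were present. Of 52636 gene identifiers, 52489 matched GENCODE M21 on GRCm38, which gave symbols, positions and exon lengths.

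Low counts were removed with filterByExpr (minimum count 10), scaled by TMM, and tested with the robust quasi-likelihood F test of edgeR 4.0.16 (limma 3.58.1, R 4.3.3), in females, in males, for the interaction and for the sexes within Con, with no covariate. P values were adjusted over all genes tested by the Benjamini-Hochberg method and called under 0.10. SEs were derived from the log2 fold change and F. CPM are on TMM-scaled library sizes, with a prior count of 2 for log2 CPM. The study's stage of the estrous cycle was left out of the female model, because the labels give a stage to 6 of 12 females and to 6 males. Marker scores were compared by exact permutation, and relations by 100000 permutations within groups in Python 3.11.15 (numpy 2.4.6, pandas 2.3.3, scipy 1.17.1). The edgeR procedure was tested on simulated data with known changes. Members, gene lists and marker lists were chosen with earlier results of these data known. Named were all called members, the 3 smallest p in comparisons without a call, a list of 22 leading matrix genes, those with extreme level or spread, those at the count minimum and the 2 smallest p of each other matrix list, and other names were chosen after their values were seen. For 1 member, values are not reported here, and it is counted but neither named nor drawn. Promoter windows are those of RefSeq on GRCm38.p6.

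Alternatives were DESeq2 1.42.0, its size factors in edgeR, no filter, a minimum of 10 counts in each animal, unstranded counts, library set (numbers 1 to 12 against 13 to 24), share of pairs without a gene or cortical score as covariates, GC and length offsets, all 24 animals, an adjusted p under 0.05, the replicate number as a block with and without offsets, and each animal left out. Over 18 pairs of groups and numbers, deviations of same-numbered animals correlated between -0.373 and 0.341, with 7 over 0.1. These mixed signs showed no pairing by number, but differently numbered animals were not compared, so that pairing was not excluded.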

Additional observations from a re-analysis of the deposited data

Results flagged for a closer look

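In 180 sets of 6 animals (a gene or marker score in a group), 19 held an animal that stood apart from the other 5 by Dixon's criterion at the 95% level. Chance flags about 1 of 20 independent sets drawn without regard to spread, but some of these genes were named for their wide spread. MSUS male 1 was high for Col1a1 (45.3 CPM, others 4.84 to 13.6) and Col1a2 (32.7 CPM, others 9.40 to 16.3), the chains of collagen I, and low for Hapln2 (9.31 CPM, others 11.9 to 13.3). MSUS female 1 was high for Col1a1 (14.5 CPM, others 6.12 to 7.62), Fn1 (82.7 CPM, others 55.5 to 63.8) and Hapln4 (35.1 CPM, others 16.8 to 21.3), and without it 15 members were called in females. Con female 5 was high for Col1a1 (31.8 CPM, others 6.95 to 14.1).

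Con female 2 was high for Col8a2 (1.65 CPM, others 0.287 to 0.731) and low for Hapln1 (13.7 CPM, others 18.4 to 19.2). MSUS male 6 was high for Col24a1 (10.9 CPM, others 3.85 to 5.47) and low for Lamb1 (39.8 CPM, others 59.9 to 66.1), and Con male 5 was low for Lamc1 (60.4 CPM, others 63.0 to 64.6). MSUS female 3 was low for Hapln2 (8.72 CPM, others 9.98 to 10.6) and for the mature oligodendrocyte score (7.44, others 7.63 to 7.71, mean log2 CPM). MSUS female 2 was low for Col13a1 (0.381 CPM, others 0.540 to 0.632), and Con male 6 was high for Lamb2 (30.8 CPM, others 26.5 to 27.7). Of the other marker scores, choroid plexus and ependyma was high in MSUS female 5 (1.59, others 0.524 to 0.784), meningeal fibroblasts in MSUS male 3 (1.64, others 0.093 to 0.431) and oligodendrocyte precursors in MSUS male 4 (5.13, others 4.78 to 4.87).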

How the results depend on the processing

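In females, 8 members were called, 3 higher and 5 lower, against 25.1% of all genes. DESeq2 called 13 (5 higher and 8 lower; of all genes 28.1%), and the test without a filter 4 (2 lower; of all genes 10.1%). An adjusted p under 0.05 gave 4 (2 lower), and the share of all genes at that threshold was not counted. The share of pairs without a gene or the cortical score as a covariate gave 0 in both directions. GC and length offsets gave 9 higher and 0 lower (of all genes 16.6%). The fit of all 24 animals gave 6 calls (1 higher and 5 lower; of all genes 19%). The replicate block gave 5 calls (3 lower, of all genes 18.5%), and the block with offsets 5 higher and 1 lower (of all genes 10.3%). Pairing by number was neither shown nor excluded, so that these are fits with a number only. Lamb2 turned to 0.058 with offsets and to 0.060 with block and offsets. Leaving out 1 animal gave 4 to 15 calls, 2 to 5 higher and 2 to 10 lower, against 15% to 27.7% of all genes. In males every alternative gave 0 calls.

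For the interaction, 0 members were called, and 1 (Col6a4) without MSUS male 1 (range 0 to 1 over animals left out), where 14.0% of all genes were called. For the sexes in Con, 0 were called, with 3 by DESeq2 (of all genes 7.32%), 1 with at least 10 counts in every animal (Col13a1; 3.36%), 2 without regard to strand (Ncan and Col13a1; 5.78%), 1 with offsets (Lama5; 0.869%) and 1 without Con male 5 (Col13a1; 6.70%; range 0 to 1). The block changed no call in males, the interaction or the sexes in Con. Of the 25 relations, 5 passed, with 0 without the 2 farthest animals and 3 and 0 within the library sets. The cause was not tested for any of these shifts. Depth limits the members with few counts, such as Col9a1 with a mean of 15.7 per library and Col13a1, called in females, with 27.5. The smallest difference that 6 animals per group could show was not tested.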
